A study of Mus musculus with 4 samples.

Results

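H2A.Z is a variant of histone H2A that takes the place of the usual histone in a share of nucleosomes. In animal cells it is known for the nucleosomes that flank the nucleosome-poor region at a transcription start site (TSS), and it is loaded by the remodellers SRCAP and p400 (Ep400). UHRF1 is the factor that brings the DNA methyltransferase DNMT1 to newly replicated DNA, so that cells which divide without it lose DNA methylation. Stretches where H2A.Z spans several neighbouring nucleosomes are called as wide peaks, and these are the subject here.

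The regions described were chosen by their width alone: all H2A.Z peaks of the WT liver on chromosomes 1 to 19 that were 750 bp or wider. There were 867 of them among 50665 WT H2A.Z peaks on these chromosomes (1.71%, Wilson 95% interval 1.60 to 1.83%) and 51702 in the whole list. H2A.Z was profiled by ChIPseq on chromatin cut to single nucleosomes with micrococcal nuclease, and accessible DNA by ATACseq, which cuts open chromatin with the Tn5 transposase. The livers came from male C57Bl/6 mice, 8 to 12 weeks old. The WT mouse was Uhrf1-fl/fl and the Uhrf1hepKO mouse was Uhrf1-fl/fl;Alb:Cre, so that Uhrf1 was deleted where the albumin promoter drives Cre, which is in hepatocytes, and the other cells of the liver kept the gene. The same 2 livers gave the 4 libraries, 1 per genotype and assay, and the mice had a normal diet with no treatment. The lists hold no RNA levels, so the labelled tissue could not be checked by its markers. With 1 library per condition nothing could be tested between conditions. The 95% intervals below, Wilson for a share and the exact binomial interval of ranks for a median, cover counting error only, and the depth of the libraries is known only through the peak lists.

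The widths of the wide peaks are the values that selected them and are given as a description. They ran from 750 to 2352 bp with a median of 859 bp (quartiles 794 and 973.5 bp), while the median over all WT peaks was 156 bp. Of the 867, 185 were 1000 bp or wider and 18 were 1500 bp or wider. They held 797483 of the 11571109 bp under WT H2A.Z peaks, or 6.89%. Widths of all peaks had local maxima in the 20 bp bins that begin at 270 and 450 bp in both livers, and no separate maximum marked off the wide peaks from the rest. Fold enrichment at the summit, the height of the read pileup over the local background, had a median of 8.53 (1.83 to 17.99) over the wide peaks and of 5.12 over all. Just inside the threshold lay 3 peaks of 750 bp, at chr8:35517318-35518067, chr2:39325476-39326225 and chr12:52604918-52605667, with folds of 6.34, 9.26 and 13.9. Just outside it lay 3 peaks of 749 bp, upstream of Tmem106c, across the TSS of Fibin and at chr3:134339037-134339785, with folds of 9.75, 5.85 and 5.85.

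**Figure D1:**
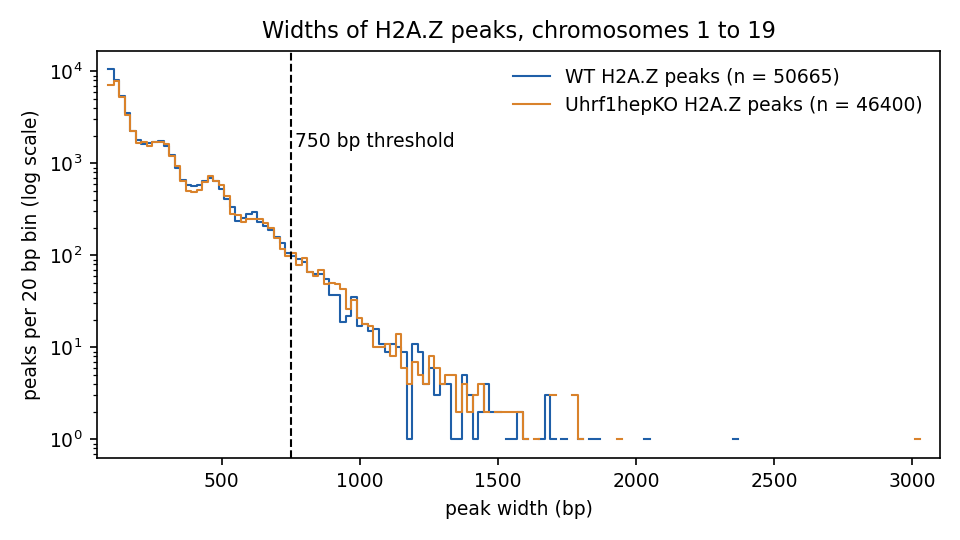
Number of H2A.Z peaks on chromosomes 1 to 19 (log axis) by peak width in bp, in bins of 20 bp, for the WT liver (blue) and the Uhrf1hepKO liver (orange). The counts of both livers fall with width through shoulders at about 270 and 450 bp, and the dashed line marks the 750 bp that chose the 867 WT peaks.

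Chromosome 13 held the largest share of wide peaks, 70 of its 2715 WT H2A.Z peaks (2.58%, 2.05 to 3.24%), and chromosome 14 the smallest, 25 of 2084 (1.20%, 0.814 to 1.77%).

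The promoters below show how a wide peak meets a TSS. They are the 4 widest peaks upstream of a TSS that had a WT ATACseq peak in the 300 bases before the TSS, had at least 50 of these bases under the wide peak, and had no annotated exon there. Each line gives the 300 bases of the GRCm38 reference that end at the base before the TSS, in the direction of the gene. Capitals mark the bases under the wide H2A.Z peak, and the lower case bases lie between the peak and the TSS. Nuf2 (chr1:169531465-169531764, minus strand) encodes a kinetochore subunit, Rps12 (chr10:23787276-23787575, minus strand) a ribosomal protein, Crebl2 (chr6:134829854-134830153, plus strand) a leucine zipper protein and Fkbp3 (chr12:65074008-65074307, minus strand) a peptidyl-prolyl isomerase of the nucleus.
Nuf2: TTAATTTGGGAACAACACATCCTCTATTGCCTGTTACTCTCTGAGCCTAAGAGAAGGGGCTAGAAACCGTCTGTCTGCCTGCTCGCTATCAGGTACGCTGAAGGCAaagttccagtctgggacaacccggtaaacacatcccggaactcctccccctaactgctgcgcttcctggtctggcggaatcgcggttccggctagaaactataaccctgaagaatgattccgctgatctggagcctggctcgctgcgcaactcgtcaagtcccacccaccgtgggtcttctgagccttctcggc
Rps12: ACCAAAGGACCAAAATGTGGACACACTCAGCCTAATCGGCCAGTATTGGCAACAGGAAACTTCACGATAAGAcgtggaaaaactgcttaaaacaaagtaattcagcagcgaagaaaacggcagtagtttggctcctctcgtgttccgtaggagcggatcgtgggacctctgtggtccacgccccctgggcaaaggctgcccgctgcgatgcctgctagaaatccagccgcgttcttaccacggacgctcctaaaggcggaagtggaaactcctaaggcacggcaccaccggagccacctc
Crebl2: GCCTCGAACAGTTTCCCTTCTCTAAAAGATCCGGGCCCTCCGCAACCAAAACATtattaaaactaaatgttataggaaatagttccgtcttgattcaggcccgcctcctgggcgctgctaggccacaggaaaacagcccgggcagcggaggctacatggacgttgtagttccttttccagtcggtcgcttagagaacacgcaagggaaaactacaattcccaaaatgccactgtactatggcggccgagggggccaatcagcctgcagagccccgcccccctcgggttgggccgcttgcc
Fkbp3: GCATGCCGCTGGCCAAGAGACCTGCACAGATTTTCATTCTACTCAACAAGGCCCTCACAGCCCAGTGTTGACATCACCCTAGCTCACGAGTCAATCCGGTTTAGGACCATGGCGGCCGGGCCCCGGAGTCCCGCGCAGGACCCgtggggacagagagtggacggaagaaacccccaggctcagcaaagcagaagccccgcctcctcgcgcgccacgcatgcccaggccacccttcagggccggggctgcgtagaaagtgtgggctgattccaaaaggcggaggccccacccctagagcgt
The wide peak covered 106, 72, 54 and 143 of the 300 bases, always those farthest from the TSS, and reached on upstream to a full width of 1402, 1319, 1306 and 1281 bp. The windows held 16, 19, 17 and 19 CpGs.

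A protein-coding TSS lay within 1 kb of 495 of the 867 wide peaks (57.1%, 53.8 to 60.3%), against 33.8% of all WT H2A.Z peaks. The peak covered the TSS in 97 cases (11.2%, 9.26 to 13.5%), against 1.99% of all WT peaks, a share that a wider peak reaches more easily. Another 302 peaks (34.8%) lay wholly upstream of the TSS, 96 (11.1%) wholly downstream, and 372 (42.9%) more than 1 kb from any protein-coding TSS. Peaks of 500 to 749 bp had a TSS within 1 kb at nearly the same share as the wide peaks, 58.4% (56.7 to 60.1%).

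The wide peaks beside a TSS lay on the upstream side about 3 times as often as on the downstream side. Of the 398 that were wholly on either side, 302 were upstream (75.9%, 71.4 to 79.8%). This share rose with width through every class: it was 43.4% (42.3 to 44.5%) for WT peaks under 200 bp, 57.7% (56.5 to 58.9%) for 200 to 499 bp and 65.4% (63.1 to 67.7%) for 500 to 749 bp, and no neighbouring intervals overlapped. Over all WT peaks it was 52.1%. The side of the TSS was not part of the rule that chose the peaks, but it was looked at only after the peaks had been seen. In the Uhrf1hepKO library, chosen by the same width there, 318 of 424 wide peaks on a single side were upstream (75.0%, 70.7 to 78.9%), and the shares of the narrower classes were 44.6%, 58.5% and 65.4%. Among the 433 wide Uhrf1hepKO peaks that overlapped no wide WT peak, 119 of 178 were upstream (66.9%, 59.6 to 73.3%), and among the 492 WT peaks with a wide Uhrf1hepKO peak over them, 199 of 242 (82.2%, 76.9 to 86.5%).

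**Figure D2:**
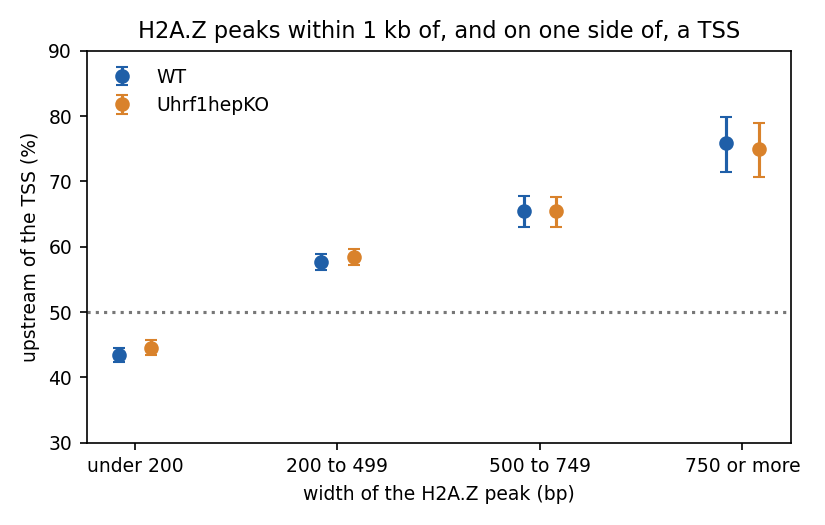
Share of H2A.Z peaks upstream of the TSS (percent, vertical axis) among those within 1 kb of a protein-coding TSS and wholly on either side of it, by peak width in bp, for WT (blue) and Uhrf1hepKO (orange). Points are shares, bars are Wilson 95% intervals and the dotted line is 50%; the share climbs from 43.4% to 75.9% in WT and from 44.6% to 75.0% in Uhrf1hepKO.

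Genes that start back to back can make the same peak upstream of both. A TSS of any annotated gene on the opposite strand was therefore sought at or upstream of the TSS beside each peak. The search ended 1 kb beyond the upstream edge of the peak, so it reached farther from the TSS for upstream peaks than for downstream ones. Such a TSS was found for 27 of the 302 upstream peaks (8.94%) and for 26 of the 96 downstream peaks (27.1%). Without all of these, 275 of 345 wide peaks were upstream (79.7%, 75.2 to 83.6%), against 55.4% of all WT peaks treated in the same way. The TSS of every transcript of a protein-coding gene was also used in place of the 5′ end of the gene. With it, 311 of 386 were upstream (80.6%, 76.3 to 84.2%), against 55.8% of all WT peaks.

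The upstream peaks ended close to the TSS. The gap from the near edge to the TSS had a median of 169 bp (quartiles 113 and 273 bp) and the far edge lay at a median of 1030 bp. Their summits were toward the gene: the median summit stood at 26.2% of the width from the end that faces the TSS, and at 45.0% for the downstream peaks, whose gap had a median of 124.5 bp. A second H2A.Z peak lay wholly downstream of the TSS, with its near edge within 1 kb of it, at 196 of the 302 upstream peaks (64.9%). The widest such peak had a median width of 268.5 bp. The share of TSSs covered by a wide peak was taken over the 495 peaks near a TSS, so that a TSS near several of them counted for each. This share reached its highest value of 69.5% at 441 bp upstream, dropped to 20.6% at the TSS and was 29.3% at 500 bp downstream. In the Uhrf1hepKO library the corresponding shares over its own 516 peaks near a TSS were 70.2% at 527 bp upstream, 18.02% at the TSS and 28.5% at 500 bp downstream.

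**Figure D3:**
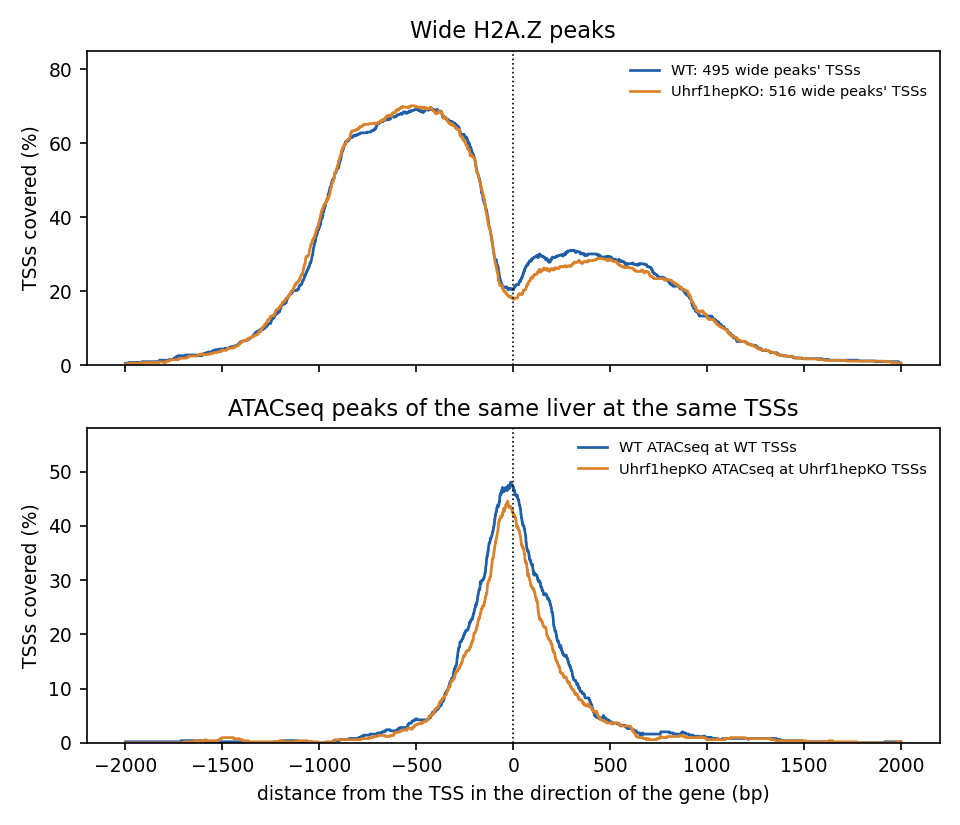
Share of TSSs (percent) covered at each distance from the TSS (bp, negative upstream of the gene) by wide H2A.Z peaks (upper panel) and by ATACseq peaks of the same liver (lower panel), for the TSSs of 495 WT wide peaks (blue) and of 516 Uhrf1hepKO wide peaks (orange). A TSS near several wide peaks is counted for each. The wide peaks form a high upstream shoulder and a low downstream shoulder with a dip at the TSS, where ATACseq peaks are most frequent.

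ATACseq peaks met the wide peaks at their edges. A WT ATACseq peak overlapped 198 of the 867 (22.8%, 20.2 to 25.7%). The share was 19.6% (18.3 to 21.1%) for WT H2A.Z peaks of 500 to 749 bp and 8.75% for all. A wider peak reaches such an overlap more easily. Of these 198 overlaps, 172 crossed an edge of the wide peak, 26 lay inside it and 0 held the whole wide peak. The overlap had a median of 139 bp, which was 15.3% of the wide peak. The summits, a single base that does not grow with width, were inside a WT ATACseq peak in 4.50% of the wide peaks (3.31 to 6.09%) and in 5.17% of all WT H2A.Z peaks. Within 500 bp of a WT ATACseq peak stood 41.5% of the summits (38.3 to 44.8%), 42.4% for peaks of 500 to 749 bp and 24.1% over all widths. At the TSSs of the 495 wide peaks near a TSS, counted per peak, the share covered by a WT ATACseq peak was 47.1%. Its highest value, 48.1%, was 12 bp upstream of the TSS.

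The share of wide peaks with an ATACseq peak nearby differed between positions, as it did over all WT H2A.Z peaks. A WT ATACseq peak lay within 500 bp of 223 of the 302 upstream peaks (73.8%, 68.6 to 78.5%), 62 of the 96 downstream peaks (64.6%), 39 of the 97 peaks across a TSS (40.2%, 31.0 to 50.2%) and 93 of the 372 distal peaks (25.0%, 20.9 to 29.6%). Over all WT H2A.Z peaks at these positions the shares were 52.2%, 53.1%, 43.1% and 11.8%. Over those of 500 to 749 bp they were 67.4% (64.5 to 70.2%), 64.0% (59.9 to 67.9%), 50.5% (43.8 to 57.2%) and 20.9% (18.8 to 23.2%), each interval overlapping that of the wide peaks. For 361 of the 867 (41.6%) neither liver had an ATACseq peak within 5 kb.

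In the Uhrf1hepKO liver 136 wide peaks overlapped an ATACseq peak (15.7%, 13.4 to 18.3%), against 7.08% of all WT H2A.Z peaks. The overlap was in both livers for 94 peaks and in either for 240. The 924 wide peaks of the Uhrf1hepKO library overlapped the ATACseq lists at like shares, 23.2% for the WT list and 16.9% for the Uhrf1hepKO list. The ATACseq lists held 10439 and 10636 peaks on chromosomes 1 to 19, with median widths of 232 and 207 bp in WT and Uhrf1hepKO. Genotype and library cannot be told apart in this difference.

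Nearly every wide peak was also called in the Uhrf1hepKO H2A.Z library. A Uhrf1hepKO peak overlapped 866 of the 867 (99.9%, 99.3 to 99.98%), against 70.0% of all WT H2A.Z peaks, and held the WT summit in 99.2% of them against 66.9% of all. The 500 to 749 bp class was close behind at 99.7% and 97.0%. Uhrf1hepKO peaks covered a median of 91.1% of the width (89.9 to 92.7%), against 91.1% (89.9 to 92.2%) for peaks of 500 to 749 bp and 78.9% over all WT peaks, and 459 wide peaks were covered to at least 90%. A single Uhrf1hepKO peak lay over 617 of them, 2 over 211, 3 over 37 and 4 over 1.

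The widest overlapping Uhrf1hepKO peak had a median of 797 bp (773 to 811 bp; quartiles 619.5 and 939 bp). It was 750 bp or wider for 492 of the 867 (56.7%, 53.4 to 60.01%) and 500 bp or wider for 742 (85.6%). It was wider than the WT peak for 263 (30.3%, 27.4 to 33.5%). Since the peaks were selected on their WT width, a smaller second value is partly fixed by that choice, and the reverse choice shows it. Of the 924 Uhrf1hepKO peaks of 750 bp or more (1.99% of 46400), 491 overlapped a wide WT peak (53.1%, 49.9 to 56.3%) and 923 any WT peak, the widest WT peak had a median of 768 bp, and it was the wider of the pair for 226 (24.5%, 21.8 to 27.3%). In each direction the library that made the choice had the wider peak more often.

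**Figure D4:**
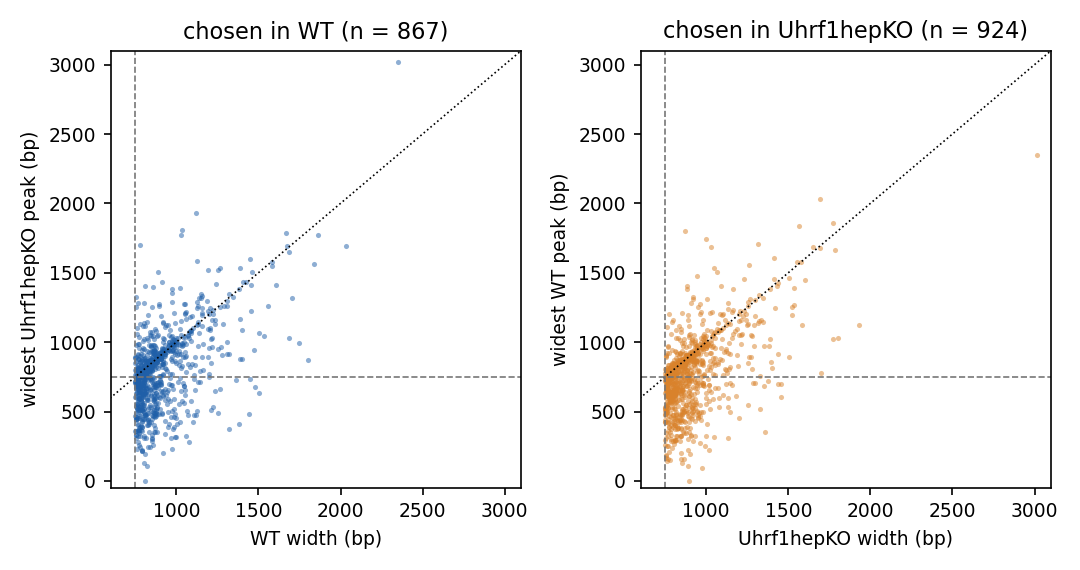
Width of each wide H2A.Z peak (bp, horizontal axis) against the widest overlapping peak in the other liver (bp, vertical axis), for the 867 peaks chosen in WT (left) and the 924 chosen in Uhrf1hepKO (right). Each point is a peak, the dotted line is equal width and dashed lines stand at 750 bp; in both panels most points lie under the dotted line, on whichever library made the choice.

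Some of the widest peaks had like widths in both livers, and others were met by several narrower Uhrf1hepKO peaks. The widest, chr16:77328818-77331169, was 2352 bp in WT and 3017 bp in Uhrf1hepKO. It lay 23258 bp from the nearest annotated TSS, that of Gm31258, and its summit was in an annotated exon outside protein-coding genes. An intron of Pde4d, a cAMP phosphodiesterase, held the peak at chr13:109440047-109441908, 1862 bp in WT and 1771 bp in Uhrf1hepKO. The peak 202 bp downstream of the TSS of Serpinb9, which encodes an inhibitor of granzyme B, was 1666 and 1784 bp wide. The peak 401 bp upstream of Ccdc6 was 1581 and 1580 bp. In contrast, the 1799 bp peak 421 bp upstream of Edem3, which acts in the disposal of misfolded glycoproteins, was met by 2 Uhrf1hepKO peaks, the wider one 868 bp, and the 1746 bp peak in Erbb4, an EGF receptor family member, by 3, the widest 996 bp. Across the TSS of Tlr3, the receptor for double-stranded RNA, the WT peak was 1706 bp with a fold of 13.9 and the wider of 2 Uhrf1hepKO peaks 1317 bp.

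The 5 peaks that Uhrf1hepKO peaks covered least had WT folds of 4.14 to 6.58, under the median of 8.53. Under 50% of the width was covered for 14 of the 867 (1.61%). The lone wide peak with no Uhrf1hepKO peak was chr1:54441255-54442063, 809 bp wide and 2284 bp upstream of Gtf3c3, a subunit of the general factor TFIIIC. Its fold was 5.36. Across the TSS of Rftn2 a peak of 803 bp and fold 4.14 was covered to 16.3%, and peaks far from the TSSs of the nearest coding genes, Ralgps2 and Sucnr1, to 23.6% and 23.9%. In the other direction, Uhrf1hepKO peaks of 1933, 1805 and 1772 bp lay over WT peaks of 1120, 1032 and 1026 bp just downstream of the Ccdc125 TSS, in an intron of Ninj2 and 2158 bp upstream of Zfp52.

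The highest folds were not at the widest peaks. The 5 highest were 17.99 at chr17:17233770-17234664, 208 bp from the TSS of Gm5165, then 17.3 at Ivd, 16.3 at Tma16 and at Akirin2, and 15.8 in an intron of Chmp4b, with widths of 895, 782, 1134, 821 and 818 bp. Ivd encodes isovaleryl-CoA dehydrogenase of leucine breakdown and Chmp4b a subunit of the membrane-cutting ESCRT-III complex. At Ivd and Tma16 the peak ended 165 and 138 bp upstream of the TSS. The widest H2A.Z peak that began within 1 kb downstream of the TSS was narrow there, 117 and 127 bp. A fold under 3 was found at 2 wide peaks. One lay across the TSS of Gm10800 on chromosome 2, with a fold of 1.83, 81.5% of its sequence soft-masked as repeat, and 1078 of its 1084 bp under an ATACseq peak in both livers. The other was in an intron of Sfi1, with a fold of 2.53.

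Genes with a wide peak were counted next: 537 of the 20807 protein-coding genes on chromosomes 1 to 19 had a wide peak within 1 kb of the TSS (2.58%), and 47.4% had any WT H2A.Z peak there. Genes of cell proliferation, a list given with the study, had a wide peak at 40 of 567 (7.05%, 5.22 to 9.46%), and any H2A.Z peak at 77.4%. The paper drew this list from genes silenced in quiescent liver that lie in chromatin states it calls active. Those states were learned partly from H2A.Z and ATACseq signal of mouse liver. The H2A.Z shares of this list are therefore partly fixed by how it was made and are a description only. Liver enriched genes, the study's list of genes with high expression in human liver, had a wide peak at 3 of 256 (1.17%, 0.399 to 3.39%), and any H2A.Z peak at 33.2%. Of the genes with any H2A.Z peak, 5.45% had a wide peak over all coding genes, 9.11% in the proliferation list and 3.53% in the liver enriched list. The part of the frequency of H2A.Z peaks of any width in these counts was not tested.

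Among the 40 proliferation genes, 25 had the wide peak upstream, 7 downstream and 8 across the TSS, and a WT ATACseq peak lay within 500 bp at 25. A Uhrf1hepKO peak of 750 bp or more was also present at 25. Over all wide peaks within 1 kb of a TSS, 302 of 495 lay upstream, 96 downstream and 97 across it. A WT ATACseq peak was within 500 bp of 223, 62 and 39 of these. Of all 867 wide peaks, 492 (56.7%) had a Uhrf1hepKO peak of 750 bp or more. The 10 widest of the 40 are given first. Phip, a bromodomain protein, had a peak of 1408 bp in WT and 1433 bp in Uhrf1hepKO, and Nuf2, a kinetochore subunit, 1402 and 1091 bp. At Ascc3, a DNA helicase, the peak was 1225 and 1233 bp, and at Dyrk3, a protein kinase, 1146 and 794 bp. The peak of Kif11, the motor that separates the spindle poles, was 1135 and 1131 bp and ended 197 bp before the TSS. Rbl1, which encodes the pocket protein p107, had 1028 and 651 bp, and Lrrk1, another kinase, 971 and 946 bp. These 7 peaks lay upstream. The other 3 lay across the TSS: Sirt1, a deacetylase, with 1159 bp in WT and 1211 bp in Uhrf1hepKO, Fign, an ATPase that severs microtubules, with 1082 and 1178 bp, and Inhba, the subunit of activin A, with 984 and 1012 bp.

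Further genes of the same list were named after their values were seen, for their known roles. Of mitosis, Cenpe, the kinetochore motor, had a peak of 872 bp in WT and 972 bp in Uhrf1hepKO, Incenp, a subunit of the chromosomal passenger complex, 851 and 830 bp, and Ndc80, the partner of Nuf2, 828 and 490 bp, all upstream. The kinesin gene Kif18a had its peak of 759 and 708 bp downstream of the TSS, and the spindle and centriole gene Spice1 had 848 and 853 bp across it. The Kif18a peak began 135 bp from its TSS and lay 125 bp upstream of the nearer TSS of Mettl15. It was therefore counted as upstream in the shares by nearest TSS. Of DNA repair and replication, Brca2, the mediator of homologous recombination, had 802 and 495 bp, Pold3, a subunit of DNA polymerase delta, 821 and 666 bp, and Smarcal1, an annealing helicase at stalled forks, 843 and 975 bp, all upstream, while Xrcc4 and Lig4, the ligase pair of end joining, had peaks of 797 and 770 bp in WT downstream. Suv39h2, a methyltransferase for H3K9, had 849 and 856 bp upstream and was the single gene of the 53 chromatin regulators with a wide peak (1.89%), although 81.1% of them had an H2A.Z peak.

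The 3 liver enriched genes were F13b, the carrier subunit of coagulation factor XIII, with 987 bp in WT and 964 bp in Uhrf1hepKO, Dhodh, an enzyme of pyrimidine synthesis, with 933 and 853 bp, and Pon3, a lactonase, with 849 and 734 bp. None of 28 hepatocyte transcription factors, 25 secreted hepatocyte proteins, 22 clock genes and 26 immediate early genes had a wide peak. With lists of this size the upper bound of the Wilson interval was 12.1%, 13.3%, 14.9% and 12.9%, so these counts of 0 do not differ from 2.58% beyond counting error. An H2A.Z peak of any width was near the TSS of 72.7% of the clock genes, of the immediate early genes 61.5%, of the hepatocyte transcription factors 42.9% and of the secreted proteins 16.0%. Kupffer cell, endothelial and cholangiocyte or stellate markers had 0 wide peaks among 9, 11 and 12 genes, and an H2A.Z peak of any width at 0, 0 and 2 of them. Splicing and RNA-binding factors had a wide peak at 5 of 39 (12.8%, 5.60 to 26.7%) and any H2A.Z peak at 94.9%, so that 13.5% of those with a peak had a wide one. Among them were Srrm2 with 1162 bp across its TSS, and Rbm39, Ddx17 and Hnrnpr with 1053, 821 and 757 bp upstream. Chaperones had 2 of 26, and any H2A.Z peak at 73.1%. The 2 were Hsp90b1 with 994 bp and Canx with 808 bp, both of the endoplasmic reticulum and both upstream and overlapping a WT ATACseq peak.

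**Figure D5:**
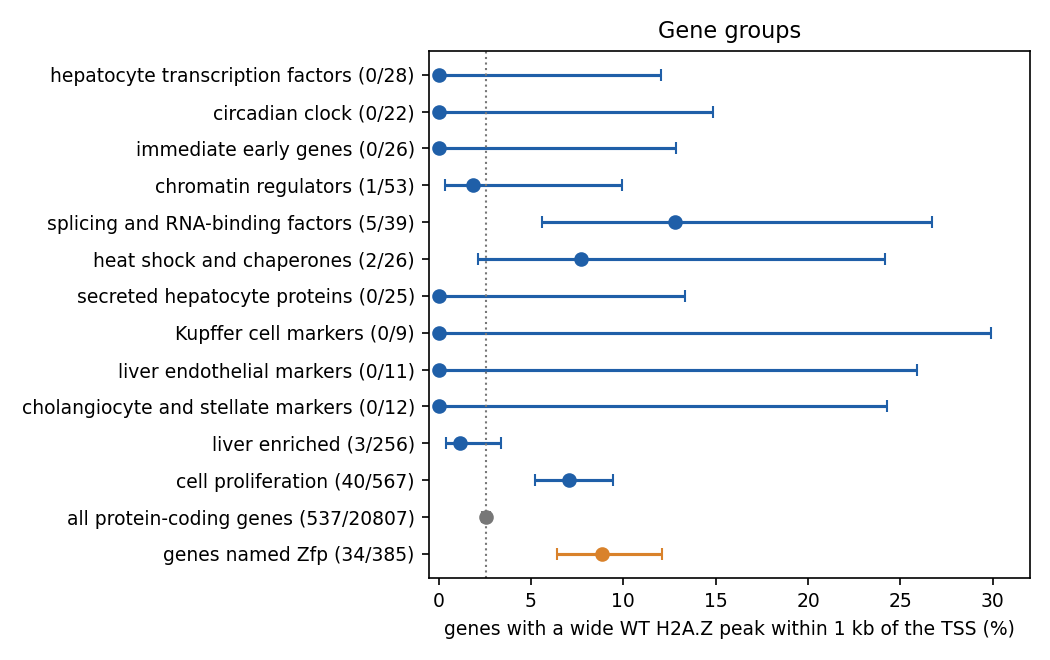
Share of the genes of each list with a wide WT H2A.Z peak no more than 1 kb from their TSS (percent), with Wilson 95% intervals; numbers beside the names are genes with a wide peak over genes counted. The dotted line is the 2.58% of all protein-coding genes. The Zfp genes (orange) were added because they were seen among the widest peaks and are a description only. The intervals of the proliferation list and the splicing factors lie above the line. The proliferation list was drawn from chromatin states learned partly from H2A.Z, so its share is partly fixed by how it was made.

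Zinc finger genes were noticed among the widest peaks and were then counted, so their count is a description. Of the 385 genes named Zfp, many of which encode KRAB repressors in gene clusters, 34 had a wide peak within 1 kb of the TSS (8.83%, 6.39 to 12.1%), and 80.5% any H2A.Z peak. Of the 34, 8 lay on chromosome 17 and 7 on chromosome 13, but how many of the 385 lie on these chromosomes was not counted. The wide peak crossed the TSS at 13 of the 34, beside 97 of 495 over all wide peaks at a TSS, and lay upstream at 16 and downstream at 5. Zfp808 had the widest, 2032 bp in WT and 1694 bp in Uhrf1hepKO, with an ATACseq peak over it in both livers. Zfp820 had 1282 and 1131 bp, Zfp763 1236 and 1130 bp and Zfp935 1157 and 1333 bp, while Zfp709 had 1253 bp in WT and 487 bp in Uhrf1hepKO. These genes share sequence with each other, and how reads with several placements were treated is not given, so their peaks are less certain than those at single-copy genes.

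The 372 distal peaks were a median of 28130 bp from the nearest protein-coding TSS. Of these, 61 lay within 1 kb of the TSS of another transcript of a coding gene, 61 within 1 kb of the TSS of any other annotated gene, and 254 (68.3%) had no annotated TSS within 1 kb. The summit was in an intron for 144, between genes for 181 and in an exon for 47. No TSS of any gene lay within 5 kb of 238 wide peaks, 27.5% of the 867 (24.6 to 30.5%), and none within 50 kb of 44. The share without a TSS within 5 kb was also 27.5% (25.9 to 29.1%) for WT peaks of 500 to 749 bp, and 47.2% over all WT H2A.Z peaks. The median distal peak was 871.5 bp wide with a fold of 8.04, against 842.5 bp and 9.51 for the upstream ones, and the widest Uhrf1hepKO peak over them had a median of 774.5 bp, against 809 bp.

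The sequences around the summits of 3 of the widest distal peaks show how their CpG content varied. They are the widest peaks with no TSS within 5 kb and no exon in the 300 bases around the summit. Each line is the plus strand of GRCm38, with CpGs in capitals: the peak of 1685 bp 7335 bp upstream of Nup153, a nuclear pore gene (window chr13:46735864-46736163), the peak of 1605 bp 20530 bp upstream of Gvin1, an interferon-inducible GTPase gene (window chr7:106236587-106236886), and the peak of 1536 bp 22001 bp upstream of Hfe2, the gene of the iron regulator hemojuvelin (window chr3:96502970-96503269).
Nup153 peak: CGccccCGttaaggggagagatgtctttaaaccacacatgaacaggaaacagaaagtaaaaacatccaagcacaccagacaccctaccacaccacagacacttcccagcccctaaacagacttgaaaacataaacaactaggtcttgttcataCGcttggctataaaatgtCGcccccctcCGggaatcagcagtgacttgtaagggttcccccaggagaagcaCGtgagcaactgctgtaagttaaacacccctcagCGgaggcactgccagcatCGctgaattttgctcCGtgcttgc
Gvin1 peak: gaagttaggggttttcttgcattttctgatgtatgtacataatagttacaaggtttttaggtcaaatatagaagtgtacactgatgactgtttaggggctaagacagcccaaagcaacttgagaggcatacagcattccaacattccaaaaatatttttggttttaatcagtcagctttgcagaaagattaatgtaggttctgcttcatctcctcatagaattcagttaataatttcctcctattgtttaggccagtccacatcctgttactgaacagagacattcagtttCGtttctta
Hfe2 peak: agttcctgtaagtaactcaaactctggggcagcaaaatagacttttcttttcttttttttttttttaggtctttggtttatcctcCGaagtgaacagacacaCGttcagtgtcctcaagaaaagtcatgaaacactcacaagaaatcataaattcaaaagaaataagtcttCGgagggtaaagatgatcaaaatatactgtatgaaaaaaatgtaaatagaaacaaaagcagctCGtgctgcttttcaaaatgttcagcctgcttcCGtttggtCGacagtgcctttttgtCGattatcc
The windows held 9, 1 and 7 CpGs. That of Hfe2 ran past the end of its peak at base 96503171, and some of its 7 CpGs lie beyond that end. Over the whole peaks there were 2.67, 0.249 and 2.34 CpGs per 100 bp.

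Over all 867 wide peaks the median was 2.05 CpGs per 100 bp (1.95 to 2.14), against 1.64 over all WT H2A.Z peaks and 2.26 (2.19 to 2.34) for those of 500 to 749 bp. Fewer than 1 CpG per 100 bp was found in 15.7% of the wide peaks and in 35.1% of all. The downstream peaks were the richest in CpGs, with 3.01 per 100 bp (2.81 to 3.43), then those across a TSS with 2.51 (2.26 to 2.85), the upstream ones with 2.06 (1.89 to 2.22) and the distal ones with 1.53 (1.43 to 1.73). The intervals of the first and the second overlap, and those of the other neighbours do not. Soft-masked repeat made up a median of 11.7% of a wide peak and 6.76% of all WT peaks, but at least 50% of the sequence in only 10 wide peaks (1.15%, 0.628 to 2.11%), against 7.30% of all. Short peaks pass the limits of 1 CpG per 100 bp and of 50% repeat more easily, and all WT peaks had a median width of 156 bp. The part of width in these 2 contrasts was not tested.

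The promoters with a wide peak upstream were rich in CpGs themselves. In the 300 bases before the TSS the 302 promoters had a median of 18 CpGs, against 9 for all 20807 protein-coding genes. The GC box GGGCGG, searched on both strands, was in 57.6% of the 302 (52.0 to 63.1%) and in 41.0% of all. The CCAAT box, by the letters CCAAT on either strand, was in 43.0% (37.6 to 48.7%) and 39.4%, intervals that overlap, and the ETS motif CCGGAAGT in 24 of the 302 (7.95%, 5.40 to 11.6%) and 3.42%. GGGCGG and CCGGAAGT can overlap at their ends and both hold a CpG. The part of the CpG content in their shares was not tested. Of all protein-coding genes, only 47.4% had H2A.Z of any width near the start. Promoters beside narrower H2A.Z peaks were not counted apart. Whether these contrasts in CpGs and motifs belong to wide peaks or to promoters with H2A.Z in general was therefore not tested.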

How the data were processed

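Reads were trimmed by the authors with Trimmomatic, checked with FastQC 0.11.5, mapped by BWA-MEM (GRCm38.p4) and, for ChIPseq, freed of duplicates with PICARD. MACS2 peaks were called library by library with a p-value cutoff, in broad mode for ATACseq. The H2A.Z lists have the narrow peak columns with a summit per peak. The version of MACS2 and a control library are not given in the sources used here. For each peak the authors deposited a score for display, a fold enrichment (a ratio of pileup to local background) and −log10 p- and q-values; their scale differs between libraries, so folds were compared only within a list. The members and lists were chosen with earlier results of these data known.

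From these lists, widths were end minus start, and overlaps needed 1 bp. The TSS was the 5′ end of the gene in GENCODE vM21, and bases were read from RefSeq's GRCm38 FASTA. Named peaks were the 15 widest, the 5 highest in fold, the 5 widest with no TSS within 5 kb, the 5 least covered and the 5 widest in Uhrf1hepKO, the 5 widest without a WT ATACseq peak, those next to the threshold, and list genes with a wide peak by width. Of the list genes, those beyond the first 10 by width (Cenpe to Lig4 in the text) and the Zfp genes were chosen after their values were seen. Gene lists other than the study's were written for this work. The values of 1 list gene are not reported here. Intervals and overlaps were tested on simulated data. Peaks on X, Y and scaffolds were left out, except in an alternative with X and Y. The work used numpy 2.4.6, scipy 1.17.1, pandas 2.3.3 and matplotlib 3.10.9 under Python 3.11.15.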

Additional observations from a re-analysis of the deposited data

Results flagged for a closer look

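H2A.Z peaks of 750 bp or more also lay on unplaced scaffolds or mitochondrial DNA, which no comparison used. There were 4 in the WT list, the widest 2779 bp, and 10 in the Uhrf1hepKO list, the widest 2800 bp, among 252 and 256 peaks there. They are given as data outside the comparisons, and the counts were not tested against each other.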

How the results depend on the processing

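With a threshold of 600 bp there were 2328 wide peaks, 118 list genes had a wide peak in place of 50, 8.55% covered a TSS, the widest Uhrf1hepKO peak had a median of 653 bp, 62.0% of wide Uhrf1hepKO peaks met a wide WT peak, and 69.8% of peaks beside a TSS were upstream. With 1000 bp there were 185 peaks and 10 list genes, 49.2% had a TSS within 1 kb, 20.5% covered it, 18.9% overlapped a WT ATACseq peak, 100% a Uhrf1hepKO H2A.Z peak, whose median width was 1026 bp, and the CpG median was 2.17 per 100 bp. With the TSS of every transcript of a coding gene, 64.1% had a TSS within 1 kb, 19.6% covered it and 80.6% of peaks beside it were upstream. With every annotated gene the shares were 64.1%, 14.4% and 69.6%, and 62.6% had a coding TSS within 5 kb. An overlap of at least 50% of the wide peak left 0.346% with a WT and 0.115% with a Uhrf1hepKO ATACseq peak, and 98.4% with a Uhrf1hepKO H2A.Z peak. With only the peaks of the other list at or above its median fold, these were 14.1%, 10.6% and 96.9%. The other 42 of 69 values, among them all with X and Y added or without masked peaks, stayed within the interval of the value given, or within 1.5 times a count. The settings for the side of the TSS were added after seeing the data. No paired analysis was possible because each condition and assay had 1 library and no result comes from a test. The lists hold only sites that passed the caller, and with 1 liver per genotype the spread between mice is unknown.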
